A study of Mus musculus with 29 samples.

Results

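Ly6C low macrophages of the liver of Rnaset2-/- mice were compared with wild-type Kupffer cells (KCs), the resident macrophages of the liver, to ask how far the transcriptome of the first matched that of the second. Both groups expressed the oxysterol receptor gene Nr1h3 and the secreted scavenger gene Cd5l at high levels, whereas the KC genes Clec4f, Folr2 and Cd163 were lower in the Rnaset2-/- cells, with log2 differences of -5.06 to -7.12. Genes of patrolling monocytes, among them Spn, Itgax and Cd300e, were higher in the Rnaset2-/- cells, and genes for complement, chemokines and alternative activation were mostly lower. The comparison took 7 of the 29 libraries of the series, 3 of Rnaset2-/- Ly6C low macrophages and 4 of wild-type KCs. Values were deposited as RPM, which are reads per gene scaled to a common library total. Of 23930 genes in the table, 21921 lay on autosomes, and the 11668 of these that reached 1 RPM in at least 3 of the 7 libraries were tested. Of the 10253 autosomal genes left untested, 4160 had no read in any of the 7 libraries and 517 reached 1 RPM in 2 of them.

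RNase T2 degrades RNA in endosomes and lysosomes. Mice have a pair of genes for it, Rnaset2a and Rnaset2b, and the deficient animals lacked both in the whole body, so that the loss was not limited to macrophages. The wild-type animals were C57BL/6 mice, a strain that the study obtained in both sexes. The animals were untreated, and the labels give neither age nor sex for the libraries. By the labels, KCs were sorted as F4/80(+) cells with intermediate CD11b, Tim4 on the surface and low PDCA-1. The study's methods define them by F4/80 and CD11b and list no antibody to Tim4 for the sort, so it is uncertain whether Tim4 was part of the gate. The Rnaset2-/- cells were sorted as CD11b(+) Fcgr4(+) cells with low Ly6C and without Ly6G, SiglecF or NK1.1. RNA was taken from the cells after sorting, without culture. The labels do not say whether the libraries of a group came from separate mice, so the p-values measure the spread between these libraries only. Xist was at 0 in the 3 Rnaset2-/- libraries and between 647 and 949 RPM in the 4 KC libraries, and the 10 Y-linked genes summed to 198.9 to 291.2 RPM in the former and to 0 in the latter. Genotype, cell type, gate and sex therefore differed together and cannot be told apart. Wild-type hepatic Ly6C low macrophages, set beside some results, were 3 libraries sorted with the gate of the Rnaset2-/- cells and held 375 to 508 RPM of Xist. Their Y-linked sums were 0, 52.7 and 52.0 RPM, so that libraries 2 and 3 held RNA of both sexes.

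KCs arise mostly before birth, line the liver sinusoids and clear particles, dying red cells and bacterial products from portal blood. When they are lost, monocytes enter the vacant niche, where Notch ligands, TGF-beta family ligands and oxysterols from endothelial cells, stellate cells and hepatocytes induce KC genes. LXRα, encoded by Nr1h3, is required for this identity, and monocyte-derived KCs gain some KC genes, such as Cd5l, earlier than others, such as Timd4. The Ly6C low gate also holds patrolling monocytes, which derive from Ly6C high monocytes under Nr4a1.

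The Rnaset2-/- libraries held 12850522 to 13060965 reads and the KC libraries 11451876 to 12207718, and a level of 3 reads corresponded to 0.23 to 0.262 RPM. Genes above 0 numbered 13305 to 13591 in the Rnaset2-/- libraries and 14444 to 16260 in the KC libraries. The 4 KC libraries were not alike. Library 3 had the lowest sum of KC markers and the highest of endothelial, hepatocyte and B cell markers, and libraries 1 and 4 held 11444 and 11025 RPM of 9 pancreatic acinar genes, against 106 and 214 RPM in libraries 2 and 3. Among the Rnaset2-/- libraries, library 1 stood apart in MHC class II genes, in Marco and in several other KC genes, and it had the highest sums of KC, hepatocyte, T cell and NK cell markers. The gate was visible in the levels. Fcgr4 was at 2577, 4451 and 3118 RPM in the Rnaset2-/- libraries and 282, 285, 173 and 329 RPM in the KC libraries, and Itgam, which encodes CD11b, was at 919.8, 727 and 630.0 RPM and 93.4, 131, 124 and 119 RPM. Adgre1, encoding F4/80, was at 652, 406 and 528 RPM and 588, 429, 201 and 467 RPM. Siglecf stayed at or below 1.54 RPM and Klrb1c, which encodes NK1.1, at or below 3.75 RPM in the Rnaset2-/- libraries.

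Relative log expression scaling left 2247 of the 11668 genes (19.3%) above KCs in the Rnaset2-/- cells and 3064 (26.3%) below them, at more than 1.5-fold and an adjusted p below 0.05 (limma, two-sided, Benjamini-Hochberg adjustment). Differences are log2 differences of scaled RPM with 1 added, Rnaset2-/- cells minus KCs. The added 1 understates the change of genes at low levels. More than 4-fold differences were found for 248 genes that were higher and 1176 that were lower. The 95% interval of the difference lay wholly within 1.5-fold for 723 genes (6.20%), and 5634 genes were neither called nor shown to lie within 1.5-fold. The count within 1.5-fold fell to 262 and 389 without Rnaset2-/- libraries 2 and 1 and to 395 and 458 without KC libraries 1 and 2, and it was 1620 when all 29 libraries entered the fit. Of the tested genes, 1262 were below 1 RPM in every Rnaset2-/- library and 26 in every KC library.

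The balance of higher and lower genes depended on the scaling. The median difference over all tested genes was -0.08 after relative log expression scaling and -0.56 on RPM as deposited, where 925 genes (7.93%) were higher and 4978 (42.7%) were lower. Higher genes thus made up 42.3% of the calls after scaling and 15.7% of the calls on deposited RPM. Scaling to the geometric mean of 12 macrophage markers was added after the values were seen. With it the median was -0.71, and 374 genes (3.21%) were higher and 3819 (32.7%) lower. The levels printed below are RPM as deposited, so the scaled difference lies about 0.5 above the ratio of the printed levels on the log2 scale.

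**Figure D1:**
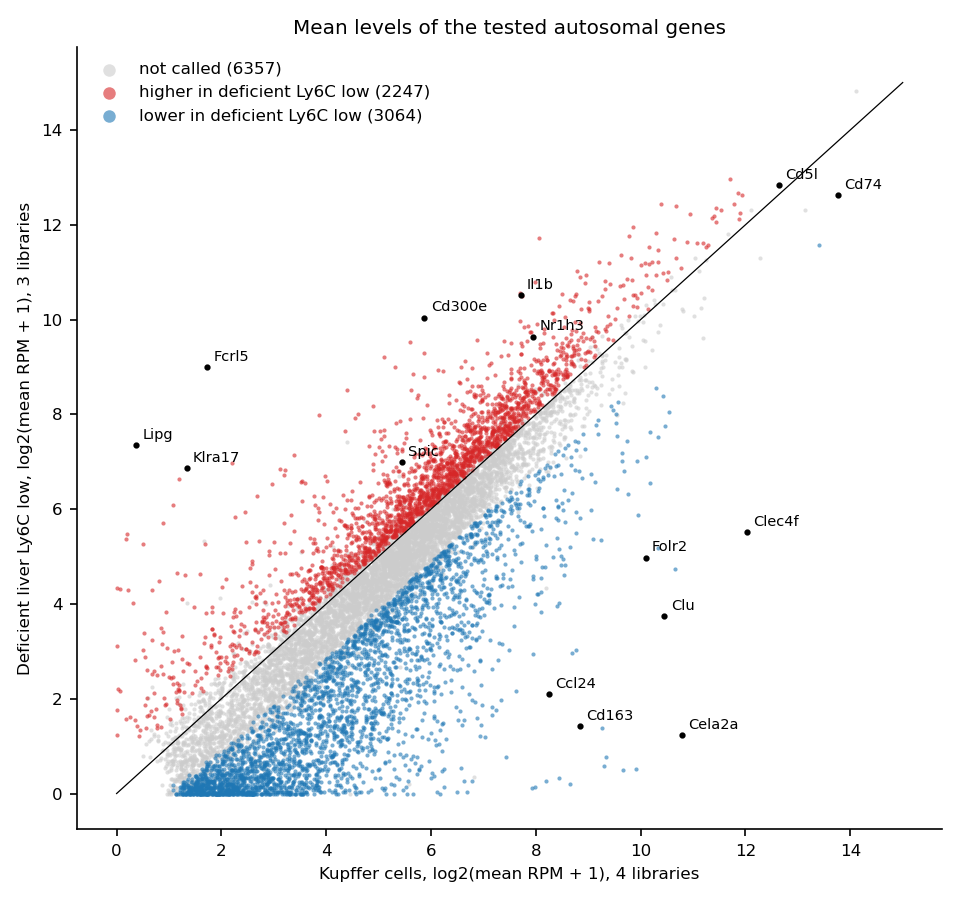
Mean level of each of the 11668 tested genes in the 4 KC libraries (horizontal axis) and the 3 Rnaset2-/- Ly6C low libraries (vertical axis), both as log2 of mean deposited RPM plus 1, with the line of equal level. Red points are the 2247 higher genes, blue points the 3064 lower genes and grey points genes not called, and the lower genes extend to the bottom axis, where 1262 tested genes had under 1 RPM in every Rnaset2-/- library.

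The libraries of each group resembled each other more than those of the other group. Pearson correlations of scaled log2 levels over the tested genes were 0.951 to 0.974 among the 3 Rnaset2-/- libraries, 0.936 to 0.973 among the 4 KC libraries and 0.772 to 0.874 in the 12 pairs between the groups. These are descriptions across genes, which are not independent, and the points share a library on each side. KC library 3 lay farthest from the Rnaset2-/- libraries, at 0.772 to 0.825, while the pairs without it reached 0.832 to 0.874. The levels of the 2 groups, as deposited, did not overlap for 6413 tested genes (55.0%). This held for 3004 of the 3064 lower genes and 1106 of the 2247 higher genes. KC library 3 was above the other 3 KC libraries in 1854 of the lower genes and below them in 374, against 4475 above and 2852 below among all tested genes.

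KC identity genes were split. Of 30 such genes, all tested, 12 were lower (40.0%), 5 were higher (16.7%) and 13 were not called. Over all tested genes 26.3% were lower and 19.3% higher. The median difference was -0.33 beside -0.08 over all tested genes. The counts moved little when 1 library was left out, with 5 higher and 13 lower without KC library 3 or without Rnaset2-/- library 1, but the medians were -0.76 and -0.69. On deposited RPM 3 were higher and 13 lower (median -0.85), with scaling to macrophage markers 3 and 15 (median -1.01), and with KC libraries 2 and 3 only 5 and 7 (median 0.08). Clec4f encodes a galactose-binding lectin made in the mouse by KCs. It was at 63.3, 17.7 and 53.1 RPM in the Rnaset2-/- libraries and at 4822, 4819, 1674 and 5470.5 RPM in the KC libraries (difference -6.05, SE 0.53, adjusted p = 6.57e-05, limma). Every Rnaset2-/- library lay below every KC library, including library 3, which had the lowest Clec4f level of the KCs. Folr2, which encodes the folate receptor beta of tissue macrophages, was at 62.9, 5.53 and 23.1 RPM and 1173, 1475, 536 and 1195 RPM (difference -5.06, SE 0.67, adjusted p = 0.000451, limma). Cd163, the scavenger receptor for hemoglobin bound to haptoglobin, was at 3.54, 0.156 and 1.3 RPM against 432, 658, 198 and 544 RPM (difference -7.12, SE 0.53, adjusted p = 3.49e-05, limma). Neither gene overlapped between the groups. Timd4, which encodes Tim4 and by the labels was part of the KC gate, was at 66.8, 10 and 13 RPM against 415, 448, 166 and 431 RPM.

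Other KC genes were lower to a lesser degree. Fcna, which encodes a ficolin that starts the lectin pathway of complement, was at 292, 31.8 and 61.7 RPM in the Rnaset2-/- libraries and 1177, 1323, 379 and 1007 RPM in KCs (difference -2.85, SE 0.69). C6, a component of the membrane attack complex, was at 294, 37.7 and 51.8 RPM against 1002, 824, 325 and 1050.2 RPM, with a difference of -2.58 that became -1.95 without Rnaset2-/- library 2 (adjusted p = 0.0524, limma). Cdh5, the VE-cadherin gene that KCs share with endothelial cells, was at 287, 44.4 and 189 RPM against 869.9, 1071, 733 and 759 RPM (difference -2.12, SE 0.54). In Fcna and C6 Rnaset2-/- library 1 lay far above libraries 2 and 3, as it did in Timd4, and without it the differences were -3.72 and -3.45. Slc40a1, the iron exporter ferroportin, was likewise highest in Rnaset2-/- library 1 and was at 678, 175 and 146 RPM against 1677, 1470.5, 483 and 1886 RPM. Its difference of -1.71 (adjusted p = 0.0397, limma) was no longer called without any 1 of KC libraries 1, 2 and 4 or Rnaset2-/- libraries 2 and 3, when it was between -1.34 and -1.62. Without Rnaset2-/- library 1 it was -2.36 (adjusted p = 0.00493, limma).

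The KC genes that were not lower included regulators of the identity. Nr1h3 was at 589, 1024 and 773 RPM in the Rnaset2-/- libraries and 262, 322, 169 and 234 RPM in KCs, higher in every Rnaset2-/- library than in any KC library (difference 2.21, SE 0.26, adjusted p = 0.000258, limma). Spic, a transcription factor of iron-recycling macrophages, was at 203, 114 and 62.6 RPM against 37.5, 49.8, 33.3 and 50.2 RPM (difference 1.93, SE 0.34), also without overlap. Tmem26 was at 129, 187 and 143 RPM against 62.8, 82.4, 20.5 and 72.5 RPM (difference 2.02, SE 0.42). Cd5l, which encodes the secreted protein AIM and is a target of LXRα, was at 9639, 6753 and 5478 RPM against 7317, 8187, 2098 and 7779 RPM. The highest Rnaset2-/- library exceeded every KC library and KC library 3 lay far below the rest. The difference of 0.87 (SE 0.53, adjusted p = 0.197, limma) was not called. Without KC library 3 it was 0.39 (adjusted p = 0.319, limma) and was not called either.

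Clec1b, the podoplanin receptor CLEC-2, was at 294, 402 and 679.7 RPM against 562, 539, 297 and 557 RPM (difference 0.40, SE 0.35, not called). Cd207, which encodes langerin, was at 189.7, 318 and 193 RPM against 229.6, 198, 166 and 208 RPM, overlapping on the deposited scale. Its scaled difference of 0.72 was called (adjusted p = 0.0195, limma) and fell to 0.55 without Rnaset2-/- library 2, when it no longer passed (adjusted p = 0.0738). Marco, a scavenger receptor for bacteria, was at 758, 8.33 and 16.3 RPM against 295, 369.5, 124 and 290.5 RPM. Rnaset2-/- library 1 lay above every KC library and libraries 2 and 3 far below, and without library 1 the difference was -3.77 (adjusted p = 0.000303, limma) instead of -1.83.

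Wild-type hepatic Ly6C low macrophages give the level of these genes in cells of the same gate from wild-type mice. Their libraries also held Xist, and the Rnaset2-/- cells were lower than them in 36 of 37 immediate early genes. The effect of RNase T2 loss alone therefore cannot be told apart from sex or cell state. They share the KC libraries with the comparison above, so the values are set side by side. Cd5l was at 46.6, 47 and 70.7 RPM in these 3 libraries, Nr1h3 at 42.6, 50.6 and 36.5 RPM and Clec1b at 25.1, 31.6 and 31.5 RPM. Against KCs, 25 of the 30 identity genes were lower in them and none was higher by limma, with a median of -4.15, where 26.2% of 12024 tested genes were lower. Between Rnaset2-/- and wild-type Ly6C low macrophages, 22 of the 30 were higher and 2 were lower, with a median of 2.80, where 20.4% of 10395 tested genes were higher and 22.3% lower. For the 3 lowest genes the wild-type Ly6C low level was also far below KCs. Clec4f was at 15.1, 4.01 and 5.19 RPM, Folr2 at 19.1, 21 and 17.4 RPM and Cd163 at 8.61, 6.97 and 5.19 RPM, the last above every Rnaset2-/- library. The sum of their KC markers was 809.6 to 1118 RPM.

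**Figure D2:**
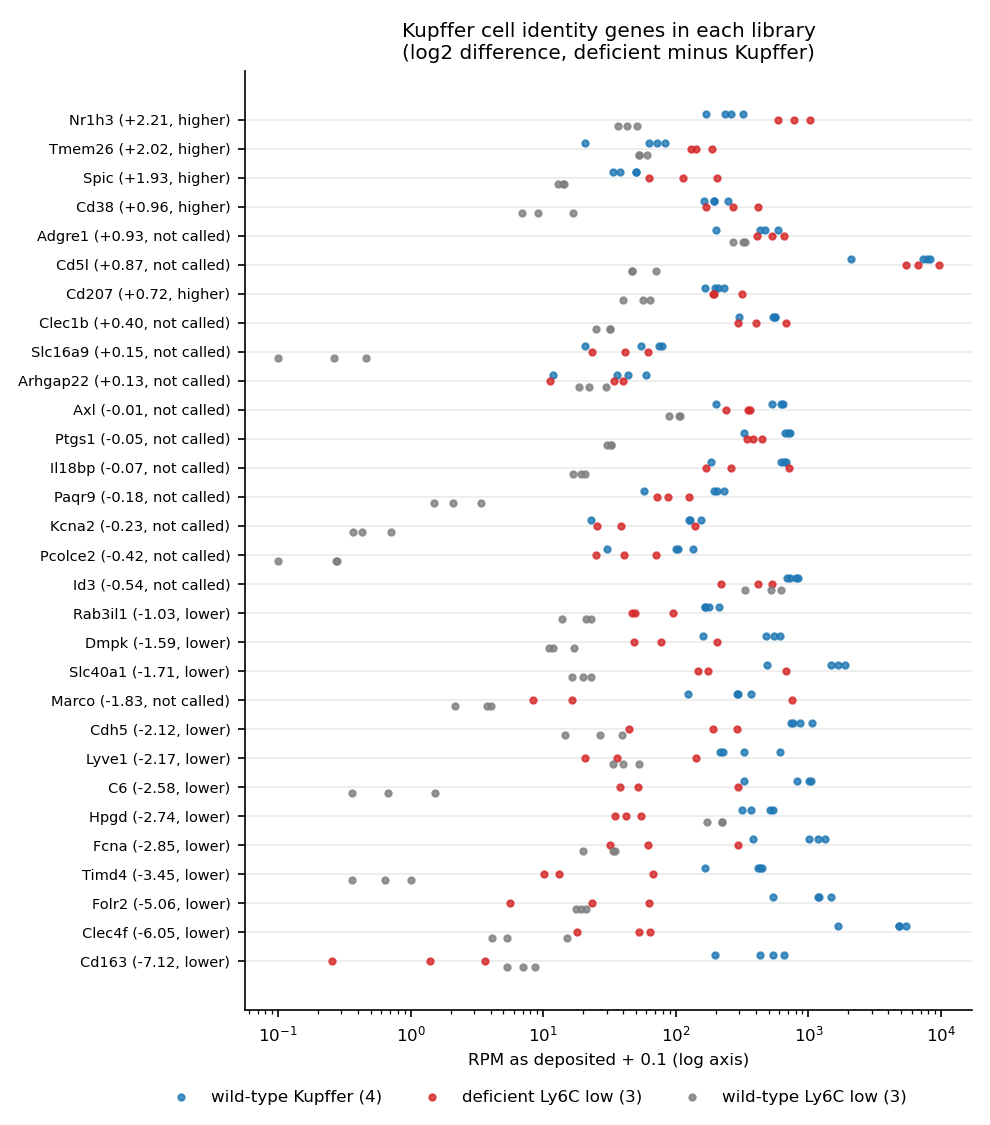
RPM as deposited plus 0.1 (logarithmic axis) of the 30 KC identity genes in each of the 4 KC libraries (blue), 3 Rnaset2-/- Ly6C low libraries (red) and 3 wild-type Ly6C low libraries (grey), ordered by the log2 difference printed beside each name. Nr1h3 is at the top with all red points to the right of the blue, Cd5l and Clec1b overlap, and Clec4f and Cd163 are at the bottom with differences of -6.05 and -7.12.

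The promoters of genes at both ends of the comparison are shown for their sequence, since Clec4f and Cd163 were among the genes that were lowest and Fcrl5 and Cd300e were among the genes that were highest relative to KCs. Each is the 250 bases before the RefSeq start in GRCm38.p6, read 5′ to 3′ on the strand of the gene. Capitals mark matches on either strand to GAGGAA (the core bound by PU.1), AGGTCA (the half-site of nuclear receptors such as LXR), TGCTGA (a MAF half-site) or TGGGAA (the core bound by RBPJ of the Notch pathway).
Clec4f, chr6:83656117-83656366, minus strand: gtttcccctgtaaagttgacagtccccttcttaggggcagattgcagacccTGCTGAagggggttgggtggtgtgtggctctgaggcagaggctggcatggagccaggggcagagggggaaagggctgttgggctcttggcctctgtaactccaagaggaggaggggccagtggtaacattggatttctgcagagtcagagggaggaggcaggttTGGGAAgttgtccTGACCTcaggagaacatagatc
Cd163, chr6:124304401-124304650, plus strand: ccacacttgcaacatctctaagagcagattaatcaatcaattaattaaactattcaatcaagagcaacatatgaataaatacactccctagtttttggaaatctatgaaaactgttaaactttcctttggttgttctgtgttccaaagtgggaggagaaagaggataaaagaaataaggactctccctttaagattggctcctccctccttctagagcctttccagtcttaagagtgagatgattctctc
Fcrl5, chr3:87435532-87435781, plus strand: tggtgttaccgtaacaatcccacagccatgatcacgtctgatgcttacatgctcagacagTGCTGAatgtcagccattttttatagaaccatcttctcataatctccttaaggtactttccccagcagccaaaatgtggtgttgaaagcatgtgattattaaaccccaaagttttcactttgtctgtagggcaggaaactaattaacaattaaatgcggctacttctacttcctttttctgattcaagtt
Cd300e, chr11:115062040-115062289, minus strand: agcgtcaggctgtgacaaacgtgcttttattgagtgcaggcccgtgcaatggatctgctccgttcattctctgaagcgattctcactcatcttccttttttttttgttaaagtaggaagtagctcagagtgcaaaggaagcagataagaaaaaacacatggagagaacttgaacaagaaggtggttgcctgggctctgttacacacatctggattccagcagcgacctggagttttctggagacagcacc
The Clec4f window held 3 matches, to the MAF, RBPJ and nuclear receptor letters, the Fcrl5 window held 1 to the MAF letters, and the other windows held none. Among 32851 such windows, GAGGAA occurred in 23.3%, AGGTCA in 14.0%, TGCTGA in 16.1%, TGGGAA in 21.6% and at least 1 of them in 56.3%. A match is a description of the sequence and not a bound site.

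The genes with the largest differences were taken in each direction. The 12 genes with the largest higher differences, taken among called genes that averaged at least 10 RPM and did not overlap, were Fcrl5, Lipg, Klra17, Lox, Hs3st2, AI606473, Sirpb1a, Ociad2, Btnl6, Epha4, Cd300e and BC064078. Fcrl5, an Fc receptor-like gene known from B cells, was at 255, 818 and 450.0 RPM in the Rnaset2-/- libraries and 2.29, 1.83, 3.75 and 1.43 RPM in KCs (difference 7.60, SE 0.37, adjusted p = 7.49e-06, limma). Lipg, which encodes the secreted endothelial lipase, was at 74.8, 264 and 146 RPM against 0.246, 0.666, 0 and 0.252 RPM (difference 7.17, SE 0.39, adjusted p = 1.39e-05, limma). Both were lowest in Rnaset2-/- library 1 and still far above every KC library. Both were near 0 in wild-type Ly6C low macrophages, where Fcrl5 was at 1.9, 2.35 and 2.5 RPM and Lipg at 0 in all 3 libraries.

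Several of the other genes encode surface receptors or matrix enzymes. Klra17, a member of the Ly49 receptor family, was at 47.3, 158 and 142 RPM against 2.46, 0.333, 1.75 and 1.59 RPM (difference 5.85, SE 0.46). Lox, lysyl oxidase, which crosslinks collagen, was at 21.7, 163 and 112 RPM against 2.38, 0, 0.961 and 1.84 RPM (difference 5.56, SE 0.65). Hs3st2, a heparan sulfate sulfotransferase, was at 23.7, 62.1 and 36.1 RPM and at no more than 0.437 RPM in KCs (difference 5.43, SE 0.34). Rnaset2-/- library 2 was the highest in all 3. Cd300e, an activating receptor of monocytes, was at 696, 1340.1 and 1124 RPM against 50, 86.3, 37.4 and 56.7 RPM (difference 4.71, SE 0.31, adjusted p = 2.12e-05, limma). It was at 364, 269.9 and 257 RPM in wild-type Ly6C low macrophages, between both groups. Epha4, an ephrin receptor, was at 8.93, 103 and 88 RPM against 0, 1.41, 2.01 and 1.01 RPM, and at 59.2, 48.9 and 51.2 RPM in wild-type Ly6C low macrophages. Klra17, Sirpb1a and Btnl6 belong to families of similar genes, and whether reads could be shared within them was not tested.

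The 12 lower genes taken by the same rule were Cela2a, Spp1, Cd163, Pnlip, Ctrb1, Cpa1, Ccl24, Chp2, 2210010C04Rik, Clec4f, Clu and Rnase1. Cela2a, Pnlip, Ctrb1 and Cpa1 encode pancreatic digestive enzymes. Cela2a was at 3290.1, 31.2, 76.8 and 3632 RPM in KC libraries 1 to 4 and at 0, 0 and 4.06 RPM in the Rnaset2-/- libraries. Pnlip was at 1897, 17.3, 39.2 and 1881 RPM and at 0.077, 0.467 and 0.766 RPM. The same pattern, with KC libraries 1 and 4 far above libraries 2 and 3, held for 2210010C04Rik, at 1264, 14.5, 11.6 and 1283 RPM, and for Rnase1, at 789, 5.91, 12.8 and 804 RPM, as it did for the sum of 9 pancreatic genes, and the part of these transcripts in other results was not tested. Spp1, which encodes osteopontin, was at 2.39, 0.623 and 1.76 RPM in the Rnaset2-/- libraries and 705, 205, 1042 and 516 RPM in KCs (difference -7.32, SE 0.50, adjusted p = 2.36e-05, limma). Clu, clusterin, was at 16.1, 8.87 and 12.2 RPM against 1473, 441, 2219 and 1471 RPM (difference -6.02, SE 0.48). Both were highest in KC library 3, which also had the highest hepatocyte and endothelial sums, and the part of those cells in them was not tested. Chp2 was at 0.77, 0.311 and 1.07 RPM against 234, 248, 70.2 and 136 RPM (difference -6.15, SE 0.43) and was lowest in KC library 3.

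Patrolling monocyte genes formed the list with the largest share of higher members. Of 24 tested, 18 were higher (75.0%, beside 19.3% of all tested genes) and 3 were lower (12.5%, beside 26.3%). The median was 1.86, and 15 were higher and 5 lower on deposited RPM. In wild-type Ly6C low macrophages, 21 of 24 were higher than in KCs and 3 lower, with a median of 2.13. Between Rnaset2-/- and wild-type Ly6C low macrophages 3 were higher and 9 lower. Both groups were sorted with the Ly6C low gate, which also holds patrolling monocytes, so this list was not particular to the Rnaset2-/- cells. Spn, which encodes CD43, was at 51.5, 77.5 and 51.8 RPM against 6.63, 3.41, 5.85 and 2.01 RPM (difference 4.03, SE 0.33, adjusted p = 5.07e-05, limma). Itgax, which encodes CD11c, was at 583, 1476 and 2492 RPM against 236, 88, 255 and 245 RPM (difference 3.29, SE 0.53, adjusted p = 0.00116, limma). Both genes overlapped with wild-type Ly6C low macrophages, with Spn at 51.8, 73.7 and 54.7 RPM and Itgax at 1159, 1058 and 896 RPM. Cx3cr1, the fractalkine receptor that also marks patrolling monocytes, was not among the higher genes. It was at 29.6, 18.5 and 12.2 RPM against 49.8, 36, 41.6 and 32 RPM (difference -0.51, SE 0.28, not called), and without Rnaset2-/- library 1 it was lower (-0.79, adjusted p = 0.0305, limma).

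Of 22 tested genes of classical monocytes, 6 were higher (27.3%, beside 19.3% of all tested genes) and 4 were lower (18.2%, beside 26.3%). The median was 0.04, and it was -0.38 on deposited RPM. Without Rnaset2-/- library 1, 7 were higher and 10 lower. Ms4a6c was at 599.8, 650.2 and 546 RPM against 170.0, 164, 103 and 203 RPM (difference 2.46, SE 0.24). Fn1, fibronectin, was at 6.62, 4.51 and 4.29 RPM against 75.1, 60, 154 and 81.6 RPM (difference -3.38, SE 0.31). The first was higher and the second lower in every Rnaset2-/- library than in any KC library. Clec4e, the glycolipid receptor Mincle, was at 58.5, 9.03 and 3.37 RPM against 1.56, 2.25, 2.1 and 2.18 RPM (difference 2.61, SE 0.71), with library 1 far above the other Rnaset2-/- libraries. Ccr2, the receptor by which monocytes leave the marrow, was at 43.3, 8.56 and 6.28 RPM against 61.2, 47.8, 49.7 and 31.1 RPM (difference -1.20, SE 0.54, not called). Its level in Rnaset2-/- libraries 2 and 3 lay below every KC library, and without library 1 it was lower (-1.98, adjusted p = 0.000773, limma).

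Among 31 tested lineage transcription factors, 12 were higher (38.7%, beside 19.3% of all tested genes) and 5 lower (16.1%, beside 26.3%). The median was 0.33, and it was -0.20 on deposited RPM. Pparg, a lipid-sensing nuclear receptor, was at 175, 389.9 and 302 RPM against 43.2, 19.4, 18.2 and 33.5 RPM (difference 3.83, SE 0.36, adjusted p = 9.34e-05, limma). Nr4a1, on which patrolling monocytes depend, was at 310.4, 1008 and 549 RPM against 126, 148, 144 and 112 RPM (difference 2.60, SE 0.33). Both were higher in every Rnaset2-/- library. In wild-type Ly6C low macrophages Pparg was at 358, 273 and 274 RPM, like the Rnaset2-/- cells, and Nr4a1 at 5025, 6375 and 6413 RPM, far above them. Id2, a partner of E proteins, was at 61, 76.3 and 77.6 RPM against 21.7, 17.1, 23.9 and 17.4 RPM (difference 2.31, SE 0.20).

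Lower factors included Tfec, Runx3 and Irf4. Tfec, a relative of MITF, was at 66.9, 2.88 and 13.6 RPM against 156, 167, 139 and 215 RPM (difference -2.92, SE 0.77). Runx3 was at 7.85, 3.04 and 2.68 RPM against 36.1, 30.7, 43.5 and 27.3 RPM (difference -2.31, SE 0.33), and Irf4 at 6.47, 7.86 and 9.95 RPM against 61.4, 53.2, 66.8 and 62.6 RPM (difference -2.29, SE 0.22). Maf, which restrains macrophage self-renewal, was at 469.7, 426 and 632 RPM against 762, 867, 982 and 601 RPM (difference -0.12, SE 0.24, not called). Rxra, the partner of LXRα, was at 836, 672 and 877 RPM against 897, 979.7, 663 and 978 RPM with a scaled difference of 0.39 (95% interval -0.13 to 0.91), which was below 0 on deposited RPM.

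LXR targets did not move as a group. Of 25 tested, 7 were higher (28.0%, beside 19.3% of all tested genes) and 8 lower (32.0%, beside 26.3%). The median was 0.22, and it was -0.30 on deposited RPM. Scd1, which encodes the fatty acid desaturase induced by LXR, was at 20.2, 6.85 and 16.5 RPM against 309, 318, 417 and 306 RPM (difference -4.05, SE 0.33, adjusted p = 5.07e-05, limma). Apoc1 was at 37.2, 38.1 and 30.1 RPM against 1586, 1459, 990.2 and 1145 RPM (difference -4.62, SE 0.20, adjusted p = 6.73e-06, limma). Apoe, the apolipoprotein that accepts effluxed cholesterol, was at 186, 235 and 349 RPM against 836, 728, 623 and 758 RPM (difference -1.03, SE 0.26), and missed the threshold without Rnaset2-/- library 2 (-0.92, adjusted p = 0.0509, limma). All 3 were lower in every Rnaset2-/- library than in any KC library.

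Pltp, the phospholipid transfer protein, went the other way, at 1485, 3755 and 3257 RPM against 1285, 1401, 954 and 1506 RPM (difference 1.58, SE 0.36). Tgm2, transglutaminase 2, was at 1711, 1735 and 1938 RPM against 703, 705, 484 and 649 RPM (difference 2.04, SE 0.22). The cholesterol exporters lay between these. Abcg1 was at 409, 568 and 401 RPM against 416, 329, 226 and 494 RPM (difference 0.89) and was not called without KC library 2 or Rnaset2-/- library 2 (adjusted p = 0.059 and 0.0858, limma). Abca1 was at 230.0, 92.7 and 81.8 RPM against 460.0, 444, 179 and 444 RPM (difference -1.03, SE 0.42, not called) and was called lower without KC library 3 (-1.38, adjusted p = 0.0136) or Rnaset2-/- library 1 (-1.46, adjusted p = 0.0128, limma). Against wild-type Ly6C low macrophages, 12 of 25 targets were higher in the Rnaset2-/- cells and 4 lower, and in KCs against those macrophages 12 were higher and 4 lower.

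Sterol synthesis and uptake genes controlled by SREBP2 were higher for 8 of 25 members (32.0%) and lower for 1 (4.0%). Over all tested genes 19.3% were higher and 26.3% lower. The median of this list was 0.41, and it was -0.04 on deposited RPM. Srebf2 itself was at 63.8, 98.9 and 121 RPM against 20.6, 28.2, 25 and 22.5 RPM (difference 2.41, SE 0.25, adjusted p = 0.000148, limma). It was higher in every Rnaset2-/- library. Hmgcs1, an enzyme of cholesterol synthesis, was at 44.6, 42.2 and 44.4 RPM against 64.5, 49, 84.4 and 50.8 RPM, and its scaled difference of 0.06 had a 95% interval within 1.5-fold (-0.42 to 0.53). That difference was below 0 on deposited RPM. Of 24 lipid-associated macrophage genes, 7 were higher (29.2%, beside 19.3% of all tested genes) and 6 lower (25.0%, beside 26.3%). The median was 0.49, and it was -0.04 on deposited RPM. Lipa, the lysosomal acid lipase, was at 561, 598 and 557 RPM against 312, 260.0, 98.4 and 323 RPM (difference 1.87, SE 0.38). Mmp14, a membrane-bound collagenase, was at 669, 442 and 502 RPM against 116, 118, 202 and 127 RPM (difference 2.47, SE 0.24). Both were higher in every Rnaset2-/- library. Trem2, the lipid receptor of these macrophages, was lower, at 5.23, 13.3 and 3.14 RPM against 70.8, 56, 19.6 and 41.7 RPM (difference -2.13, SE 0.49), as was Mmp12, macrophage elastase, at 3.69, 0.389 and 1.46 RPM against 55.4, 34.1, 26.3 and 48.2 RPM (difference -3.60, SE 0.45).

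Receptors for the uptake of dying cells and modified lipoproteins were lower more often than higher. Of 30 tested genes for efferocytosis and scavenging, 14 were lower (46.7%, beside 26.3% of all tested genes) and 7 higher (23.3%, beside 19.3%). The median was -0.86. Cd36, a scavenger receptor for oxidized LDL, was at 30.8, 15.4 and 33.2 RPM against 293, 245, 349 and 272 RPM (difference -2.94, SE 0.28, adjusted p = 0.000104, limma). Gas6, the ligand that bridges phosphatidylserine to the TAM receptors, was at 1.69, 2.8 and 16.9 RPM against 135, 105, 331 and 147 RPM (difference -4.37, SE 0.65). Stab2, a hyaluronan scavenger receptor of sinusoidal endothelium, was at 9.16, 15.6 and 56.5 RPM against 289, 494, 519.8 and 199.7 RPM (difference -3.52, SE 0.57). Gas6 and Stab2 were highest in Rnaset2-/- library 3 and KC library 3, the libraries with the highest endothelial marker sum of their groups. The TAM receptors themselves were not called. Mertk was at 196, 117 and 68.8 RPM against 379.7, 345, 141 and 334 RPM (difference -0.73, SE 0.40), and without KC library 3 it was lower (-1.08, adjusted p = 0.025, limma). Axl was at 359, 353 and 237 RPM against 645, 527, 201 and 617 RPM (difference -0.01, SE 0.39). Both were above wild-type Ly6C low macrophages, where Mertk was at 15.2, 17.7 and 21.8 RPM and Axl at 87.9, 107 and 106 RPM. Cd300lf, a receptor for phosphatidylserine and ceramide, was higher, at 354, 558 and 561 RPM against 57.8, 58.9, 37.4 and 123 RPM (difference 3.44, SE 0.37, adjusted p = 0.00018, limma).

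Heme and iron recycling genes moved in both directions. Of 20 tested genes 6 were higher and 5 lower, with a median of 0.13 that was -0.38 on deposited RPM. Slc11a1 and Slc11a2, which carry iron out of the phagosome and endosome, were both higher in every Rnaset2-/- library. Slc11a1 was at 2814, 2491 and 2228 RPM against 988, 953, 433 and 1229 RPM (difference 2.10, SE 0.35) and Slc11a2 at 231, 245 and 200.2 RPM against 84.7, 90.3, 60.2 and 94.1 RPM (difference 1.98, SE 0.19). Transcripts of the uptake receptor gene Cd163 and the iron exporter gene Slc40a1 were lower, with the limits given above. Hmox1, which opens the heme ring, was at 1528, 930.1 and 770.3 RPM against 1119.8, 906, 509 and 1526 RPM, and its difference of 0.66 (SE 0.38) was not called.

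Complement genes were lower for 14 of 23 tested members (60.9%, beside 26.3% of all tested genes) and higher for 4 (17.4%, beside 19.3%). The median was -1.86. Cfi, factor I, was at 0.924, 0.078 and 0.766 RPM against 13.8, 9.57, 36.4 and 15.1 RPM (difference -3.18, SE 0.44) and was highest in KC library 3. C1qb, a chain of C1q, was higher, at 4025, 4529.9 and 4145 RPM against 3217, 2868, 1442 and 3600.2 RPM (difference 1.21, SE 0.36), and was not called without Rnaset2-/- library 2 (adjusted p = 0.0588, limma). Every Rnaset2-/- library was above every KC library for it. C1qc was at 15.6, 15.8 and 12.7 RPM against 34, 39.4, 17.5 and 23 RPM (difference -0.34, SE 0.28, not called), and C1qa stayed at or below 1.25 RPM in all 7 libraries and was not tested. How well the sequencing captured each of these chains was not tested, so the low level of C1qa does not show its absence.

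MHC class II genes, which present antigen to helper T cells, differed widely among the Rnaset2-/- libraries. Of 18 tested genes, 7 were lower (38.9%, beside 26.3% of all tested genes) and 1 higher (5.56%, beside 19.3%). The median was -1.81, and on deposited RPM 13 were lower. Cd74, the invariant chain, was at 17546, 583 and 757 RPM in Rnaset2-/- libraries 1, 2 and 3 and at 14593, 10837, 12602 and 17364 RPM in KCs. H2-Ab1 was at 1433, 54.8 and 55 RPM against 1389.8, 875, 927 and 1159 RPM. Library 1 thus lay above the KC range and libraries 2 and 3 far below it, and neither gene was called (adjusted p = 0.0909 and 0.0891, limma). Without library 1, 15 of the 18 genes were lower and 1 higher, with differences of -3.79 for Cd74 and -3.70 for H2-Ab1 (adjusted p = 9.75e-05 and 2.31e-05). Library 1 was not above the others in every member. H2-Ob, a chain of the DM inhibitor made by B cells, was at 20.6, 9.8 and 22.4 RPM against 102, 89.7, 229 and 129.6 RPM (difference -2.36, SE 0.38), and the costimulatory Cd83 at 2.62, 3.04 and 4.06 RPM against 28.8, 18, 21.7 and 18 RPM (difference -1.95, SE 0.27). Summed markers of conventional dendritic cells were 343, 204 and 391 RPM in Rnaset2-/- libraries 1 to 3 and those of B cells 328.5, 345 and 587, while T cell, NK cell, hepatocyte and KC marker sums were highest in library 1, at 181.6, 141.0, 136.6 and 14031 RPM. The part of such cells in these values was not tested. In wild-type Ly6C low macrophages Cd74 was at 14318, 21424 and 19698 RPM.

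**Figure D3:**
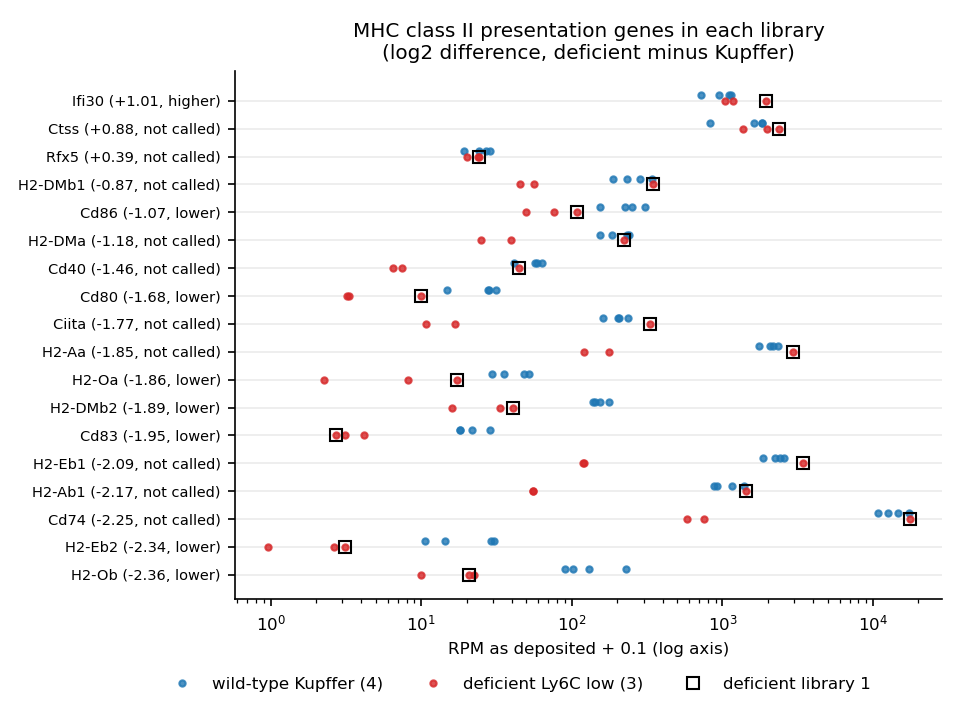
RPM as deposited plus 0.1 (logarithmic axis) of the 18 tested MHC class II presentation genes in each of the 4 KC libraries (blue) and 3 Rnaset2-/- Ly6C low libraries (red), with Rnaset2-/- library 1 boxed and the log2 difference beside each name. Boxed points of Cd74 and H2-Ab1 lie at 17546 and 1433 RPM above the KC points, and the other red points of these genes lie between 54.8 and 757 RPM.

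Of 30 Toll-like receptors and their adaptors, all tested, 12 were higher and 6 lower, with a median of 0.51 that was -0.02 on deposited RPM. Unc93b1, which carries the nucleic acid-sensing receptors to endosomes, was at 3042, 3314 and 4488 RPM against 1691, 1225, 728 and 1392 RPM (difference 2.10, SE 0.34). Myd88, the shared adaptor, was at 227, 312 and 294 RPM against 91.6, 120.1, 90.9 and 130.3 RPM (difference 1.88, SE 0.21, adjusted p = 0.000199, limma). Irak3, which inhibits the signal below MyD88, was at 443, 439 and 444 RPM against 45.7, 50.2, 73.9 and 60 RPM (difference 3.47, SE 0.19, adjusted p = 1.39e-05, limma). All 3 were higher in every Rnaset2-/- library than in any KC library. Tlr4, the LPS receptor, was at 267, 216 and 248 RPM against 157, 181, 110.5 and 217 RPM (difference 1.11, SE 0.25), with 1 Rnaset2-/- library inside the KC range. On deposited RPM the difference was 0.58 (adjusted p = 0.056, limma) and no longer called. Tlr2, the lipopeptide receptor, was lower, at 13.4, 10.4 and 9.49 RPM against 47.6, 32.8, 30.9 and 52 RPM (difference -1.27, SE 0.25). Tlr9, which senses DNA, was at 122, 90.2 and 92.8 RPM against 129, 90.6, 114 and 96.5 RPM (difference 0.44, SE 0.19, not called). X-linked receptors such as Tlr7 and Tlr13 were outside the autosomal comparison.

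Among 25 tested cytokine genes, 6 were higher (24.0%, beside 19.3% of all tested genes) and 9 lower (36.0%, beside 26.3%). The median was -0.07, and it was -0.60 on deposited RPM and -0.62 without Rnaset2-/- library 1. Il10, the main anti-inflammatory cytokine of macrophages, was at 46.7, 41.1 and 48.9 RPM against 9.58, 7.65, 6.99 and 13.6 RPM (difference 2.69, SE 0.27, adjusted p = 0.000114, limma). Il1b was at 849, 1783 and 1738 RPM against 214, 212, 183 and 226 RPM (difference 3.25, SE 0.28, adjusted p = 6.18e-05, limma). Both were higher in every Rnaset2-/- library than in any KC library, and both overlapped with wild-type Ly6C low macrophages, at 14.7, 46.1 and 56.4 RPM for Il10 and 986, 1179 and 1566 RPM for Il1b. Tnfsf13b, which encodes the B cell survival factor BAFF, was at 28.6, 108 and 148 RPM against 20.8, 11.4, 19.6 and 9.14 RPM (difference 2.86, SE 0.53). Il6 was lower, at 0.308, 0.623 and 0.077 RPM against 3.77, 2.58, 2.44 and 2.77 RPM (difference -1.32, SE 0.28), and Tnf was at 4.46, 2.72 and 0.995 RPM against 1.64, 1.58, 1.05 and 0.923 RPM (difference 0.92, SE 0.36, not called). The levels of Il6 and Tnf were at most 4.46 RPM in these 7 libraries, so their differences rest on few reads. Without Rnaset2-/- library 3, Tnf was called higher (1.34, adjusted p = 0.0171, limma).

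Chemokines and their receptors were lower for 18 of 31 tested members (58.1%, beside 26.3% of all tested genes) and higher for 3 (9.68%, beside 19.3%). The median was -1.42. Ccl24, an eosinophil attractant of alternatively activated macrophages, was at 9.31, 0.389 and 0.153 RPM against 302, 475, 137 and 298 RPM (difference -6.42, SE 0.74, adjusted p = 0.00024, limma). Ccl22, which attracts regulatory T cells, was at 0.616, 1.25 and 1.99 RPM against 52.3, 22, 16.2 and 39.2 RPM (difference -3.38, SE 0.43). Cxcl2, which attracts neutrophils, was at 2.54, 0.389 and 0.306 RPM against 26.5, 36.4, 16.3 and 14.7 RPM (difference -3.29, SE 0.45). None of the 3 overlapped between the groups. Cxcl14 and Ccl3 were higher, Cxcl14 at 11, 45.4 and 45 RPM against 6.23, 7.4, 5.5 and 6.79 RPM (difference 2.47, SE 0.46) and Ccl3 at 196, 197 and 351 RPM against 125, 90.8, 204 and 136 RPM (difference 1.36, SE 0.32). Wild-type Ly6C low macrophages stood on the far side of KCs for this list, with 18 of 31 genes higher than in KCs and 5 lower, and the Rnaset2-/- cells were lower than them in 20 of 29 genes and higher in 1. Cxcl2 was at 218, 505 and 506 RPM in those macrophages.

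Genes of alternative activation were lower for 10 of 17 tested members (58.8%, beside 26.3% of all tested genes) and higher for 3 (17.6%, beside 19.3%). The median was -2.05. Retnla, which encodes the secreted protein RELMα, was at 0 in the 3 Rnaset2-/- libraries and at 2.95, 9.48, 1.57 and 3.44 RPM in KCs. Against a level of 3 reads per library it was at least 18.7-fold lower, and it was at 418, 389 and 431 RPM in wild-type Ly6C low macrophages. Ccl24, given above, is also on this list. Il4ra, the receptor through which alternative activation is induced, was higher in every Rnaset2-/- library, at 582, 509 and 604 RPM against 289, 219, 308 and 364 RPM (difference 1.48, SE 0.22).

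Receptors for niche signals and growth factors were examined next. Of 29 genes of Notch, TGF-beta and BMP signaling, 6 were higher (20.7%) and 7 lower (24.1%), with a median of -0.48. These shares lay near the 19.3% and 26.3% of all tested genes. On deposited RPM 5 were higher and 13 lower (median -0.93). Tgfb1 was at 1108, 1251 and 1689 RPM against 579, 564, 545 and 646 RPM (difference 1.72, SE 0.23), and its receptor Tgfbr2 at 223, 318 and 355 RPM against 140.0, 139, 171 and 149 RPM (adjusted p = 0.000544, limma). Both were higher in every Rnaset2-/- library. Notch1 was lower, at 8.62, 3.66 and 6.89 RPM against 46.2, 49.9, 80.3 and 43.9 RPM (difference -2.46, SE 0.32), as was Bmp2, at 7.31, 14.4 and 60 RPM against 248, 344, 623 and 200.2 RPM (difference -3.51, SE 0.64). Bmp2 is also on the endothelial list, was highest in library 3 of each group, and Notch1 was highest in KC library 3. Of 25 receptors for colony-stimulating factors and cytokines, 10 were higher (40.0%, beside 19.3% of all tested genes) and 6 lower (24.0%, beside 26.3%). The median was 0.72. On deposited RPM 7 were higher and 7 lower (median 0.19). Csf2rb was at 243, 334 and 129.5 RPM against 91.2, 81.7, 28.8 and 72.5 RPM (difference 2.31, SE 0.41) and Il10ra at 759, 1152 and 1678 RPM against 522, 316, 464 and 558 RPM (difference 1.85, SE 0.32). Csf1r, on which macrophage survival depends, was at 1651, 1290.5 and 665 RPM against 2104, 1968, 795 and 2178 RPM with a scaled difference of -0.01 (95% interval -0.95 to 0.93). That interval reaches beyond 1.5-fold on both sides.

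Fc receptors were higher for 10 of 21 tested members (47.6%, beside 19.3% of all tested genes) and lower for 4 (19.0%, beside 26.3%). The median was 1.05. The higher members include Fcgr4, by which the Rnaset2-/- cells were sorted, so its direction was set by the gate. Beside Fcgr4 of the gate and Fcrl5, the largest higher members were Clec4a3, at 182, 412 and 376 RPM against 75.4, 49.2, 27.7 and 56.7 RPM (difference 3.13, SE 0.38), and Clec4a1, at 224, 323 and 131 RPM against 46.9, 42.3, 27.3 and 39.7 RPM (difference 2.96, SE 0.28). Both are C-type lectin receptors that were put on this list. Among the lower members, Fcer2a, the low-affinity IgE receptor of B cells, was at 10.3, 3.27 and 32.1 RPM against 115, 114, 222 and 98.3 RPM (difference -2.99, SE 0.62), and Pigr, which carries IgA across epithelium, was at 3.08, 0.311 and 1.84 RPM against 104, 85.4, 225 and 75.3 RPM (difference -5.09, SE 0.47). Both were highest in KC library 3, which also had the highest B cell sum of 2275 RPM and hepatocyte sum of 6747 RPM. The part of such cells in the lower levels was not tested.

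Lysosomal genes were higher more often than lower. Of 37 proteases and hydrolases 12 were higher (32.4%, beside 19.3% of all tested genes) and 3 lower (8.11%, beside 26.3%). Their median of 0.36 was -0.13 on deposited RPM, where 6 were higher and 9 lower. Of 26 membrane proteins and V-ATPase subunits 10 were higher (38.5%) and 3 lower (11.5%). Their median of 0.44 was -0.08 on deposited RPM, where 4 were higher and 6 lower. Acp5, the tartrate-resistant acid phosphatase, was at 1498, 2524 and 3153 RPM against 559, 608, 452 and 743 RPM (difference 2.50, SE 0.31). Slc15a4, a histidine and peptide transporter needed by endosomal Toll-like receptors, was at 68.1, 147 and 155 RPM against 58.7, 56.5, 37.2 and 52.4 RPM (difference 1.71, SE 0.31). No Rnaset2-/- library overlapped a KC library for either gene. Atp6v0d2, a V-ATPase subunit, was at 0.308, 0.233 and 0.306 RPM against 66.3, 4.83, 0.786 and 85.5 RPM, high in KC libraries 1 and 4, and its difference of -3.36 (adjusted p = 0.0406, limma) was not called without any 1 of KC libraries 1 and 4 and the 3 Rnaset2-/- libraries, when it was between -2.53 and -3.42.

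Of 25 nucleic acid-degrading enzymes other than RNase T2, which was not analysed here, 6 were higher (24.0%) and 2 lower (8.0%). Over all tested genes 19.3% were higher and 26.3% lower. The median of this list was -0.19. On deposited RPM 3 were higher and 11 lower (median -0.67), and without Rnaset2-/- library 1, 5 were higher and 6 lower. Pld4, a lysosomal exonuclease for single-stranded DNA and RNA, was at 1619, 2302 and 1796 RPM against 505, 516, 289 and 533 RPM (difference 2.60, SE 0.27, adjusted p = 0.000139, limma). Zc3h12a, the RNase regnase-1 that cleaves inflammatory mRNAs, was at 67, 86.8 and 66.8 RPM against 49.9, 29.4, 32 and 49.7 RPM (difference 1.40, SE 0.24). Cda, cytidine deaminase, was lower, at 0.077, 0.7 and 0.613 RPM against 7.21, 19.1, 18.8 and 7.72 RPM (difference -2.87, SE 0.40).

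Interferon-stimulated genes were higher for 3 of 29 tested members (10.3%, beside 19.3% of all tested genes) and lower for 10 (34.5%, beside 26.3%). The median was -0.48. On deposited RPM none was higher by limma and 18 were lower (median -1.01). Oas2, which makes the activator of RNase L, was at 117, 115 and 83.9 RPM against 518, 455, 405 and 732 RPM (difference -1.76, SE 0.23, adjusted p = 0.000432, limma). Mx1, an antiviral GTPase, was at 30.6, 11.8 and 6.81 RPM against 74.6, 48.2, 55.8 and 76.5 RPM (difference -1.61, SE 0.41). Both were lower in every Rnaset2-/- library. Gbp2, a guanylate-binding protein of the interferon gamma response, was at 456, 131 and 93 RPM against 94.5, 124, 33.2 and 47.8 RPM (difference 1.94, SE 0.57), with library 1 far above the other Rnaset2-/- libraries, and was not called without KC library 4 (adjusted p = 0.0524, limma).

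Immediate early genes respond to cell isolation as well as to stimulation. Of 37 tested members 8 were higher (21.6%, beside 19.3% of all tested genes) and 12 lower (32.4%, beside 26.3%). The median was -0.25. On deposited RPM 5 were higher and 22 lower (median -0.77). Nfkbiz was at 528, 918 and 806 RPM against 174, 138, 194 and 158 RPM (difference 2.67, SE 0.23), and Fosb at 0.847, 0.389 and 0 RPM against 29.3, 12.6, 56.1 and 25.6 RPM (difference -4.08, SE 0.46). Wild-type Ly6C low macrophages were far from both groups. They were higher than KCs in 35 of 37 of these genes and lower in 1, and the Rnaset2-/- cells were lower than them in 36 and higher in 1. Nfkbiz was at 2674, 2670.5 and 2749 RPM and Fosb at 235, 328 and 288 RPM in those libraries.

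Cell cycle genes were seldom lower after scaling. Of 33 S phase genes 8 were higher (24.2%, beside 19.3% of all tested genes) and 3 lower (9.09%, beside 26.3%). Their median was 0.17, and it was -0.26 on deposited RPM. Of 43 G2/M genes 12 were higher (27.9%) and 1 lower (2.33%), with a median of 0.35 that was -0.11 on deposited RPM. On deposited RPM 2 S phase genes were higher and 5 lower and 1 G2/M gene was higher and 3 lower. Without Rnaset2-/- library 1, 7 G2/M genes were higher and 1 lower. Bub1b, a spindle checkpoint kinase, was at 54.6, 49.2 and 54.9 RPM against 33.8, 46.9, 32.8 and 28.7 RPM (difference 1.10, SE 0.20). Ccna2, cyclin A, was at 59.2, 41.3 and 26.2 RPM against 21.2, 27.4, 22.4 and 19.6 RPM (difference 1.32, SE 0.26), with 1 Rnaset2-/- library inside the KC range. Mcm6, a subunit of the replicative helicase, was at 106, 87.2 and 90 RPM against 110.3, 160.0, 149.9 and 137 RPM and had a scaled difference within 1.5-fold (-0.03, 95% interval -0.43 to 0.38).

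**Figure D4:**
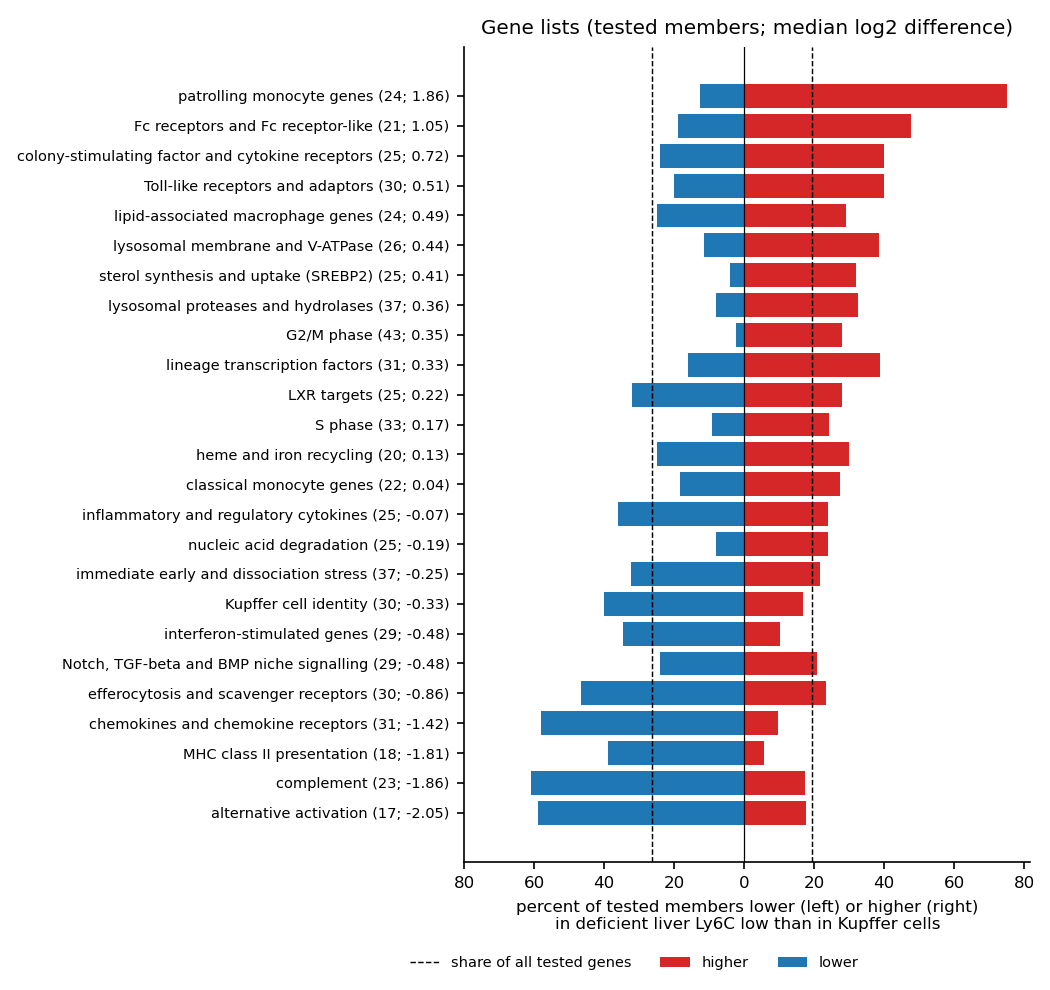
Share of the tested members of 25 gene lists that were higher (red, to the right) or lower (blue, to the left) in Rnaset2-/- Ly6C low macrophages than in KCs, in percent, with the number tested and the median log2 difference beside each name. Dashed lines give the share over all tested genes, 19.3% higher and 26.3% lower, and patrolling monocyte genes have the longest red bar (75.0%) and complement genes the longest blue bar (60.9%).

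On deposited RPM, the medians of 11 of the 25 lists that were above 0 after scaling fell below it, and the same number did so with scaling to macrophage markers. No median changed sign with trimmed mean of M values factors. The medians for patrolling monocytes and Fc receptors, a list that includes Fcgr4 of the gate, stayed above 0 in all of these. That for colony-stimulating factor and cytokine receptors did too, at 0.03 with scaling to macrophage markers, but there 2 of its genes were higher and 7 lower. For that list the median on deposited RPM was 0.19, with 7 genes higher and 7 lower. The directions of the other lists with a positive median therefore hold relative to the median gene and not on deposited RPM. Lists with more lower than higher members had fewer higher calls or as many, and more lower calls, under both scalings. Among the genes named as higher, Cd207, C1qb, Abcg1, Tlr4, Gbp2 and Bub1b were not called on deposited RPM, with differences of 0.19, 0.68, 0.36, 0.58, 1.42 and 0.58. With scaling to macrophage markers Gbp2 was called (1.25, adjusted p = 0.0373, limma) and the others of these were not. The calls of Pltp, Ccl3, Tgfb1, Tgfbr2, Il10ra, Il4ra, Slc15a4, Zc3h12a and Ccna2 were lost with that scaling, with differences of 0.64 to 1.15. Among the genes named as not called, Maf, Mertk, C1qc, Ccr2, Cx3cr1, Abca1, H2-Ab1 and Cd74 were lower on deposited RPM, with differences of -0.65 to -2.78.

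Markers of most other liver cells were at lower levels in the Rnaset2-/- libraries. In bulk libraries, fewer cells of a type and less RNA per cell cannot be told apart. Of 20 sinusoidal endothelial markers 18 were lower and none was higher by limma, and their sum was 754 to 3080 RPM in the Rnaset2-/- libraries and 7614 to 16961 RPM in KCs. All 18 tested hepatocyte markers were lower, with sums of 20.4 to 136.6 RPM against 2139 to 6747 RPM. Of stellate cell, B cell and NK cell markers, 11 of 14, 12 of 14 and 11 of 14 were lower, as were 8 of 15 T cell and 3 of 4 granulocyte and mast cell markers, and none of these was higher by limma. Other lists moved in both directions. Of 14 conventional dendritic cell markers 10 were lower and 2 higher, of 9 plasmacytoid dendritic cell markers 4 and 2, and of 9 neutrophil markers 5 and 2. Of 8 platelet markers 2 were lower and 1 higher, with a median of 0.44 and a share of lower genes near that of all tested genes. Sums of neutrophil and platelet markers overlapped between the groups. Clec1b, a KC gene that is also on the platelet list, made up most of each platelet sum. It was at 294, 402 and 679.7 RPM beside platelet sums of 343, 481 and 756 RPM in the Rnaset2-/- libraries. In KCs it was at 562, 539, 297 and 557 RPM beside sums of 767, 775, 556 and 746 RPM. The 3 tested erythroid markers were higher, though none was called with scaling to macrophage markers. No tested marker of these other cells was at 0 in all 3 Rnaset2-/- libraries except Mgl2 of the dendritic cell list. The sum of 12 macrophage markers was 14553 to 20050 RPM against 7968 to 16082 RPM, and the sum of 14 KC markers 8268 to 14031 RPM against 7516 to 21579 RPM. The overlap of the KC marker sums rested on Cd5l. It gave 9639, 6753 and 5478 RPM of sums of 14031, 9618 and 8268 RPM in the Rnaset2-/- libraries. In KCs it gave 7317, 8187, 2098 and 7779 RPM of sums of 20434, 21547, 7516 and 21579 RPM. KC library 3, with the highest endothelial and hepatocyte sums, had the lowest sums of both macrophage lists. Cdh5, Bmp2 and Stab2, named above, are also endothelial markers, and the part of other cells in the 3064 lower genes was not tested. With KC libraries 2 and 3 alone, which lacked the high pancreatic sums, 1669 genes were higher and 2269 lower. Without KC library 3, 2117 were higher and 2802 lower.

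**Figure D5:**
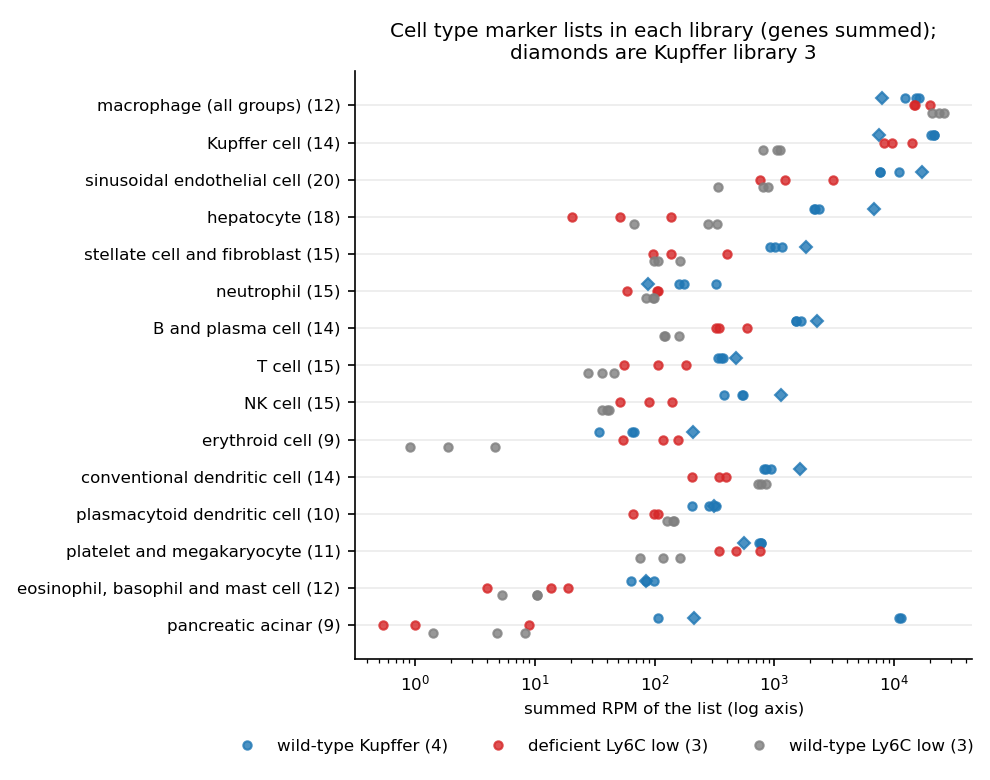
Summed RPM of the measured genes of 15 cell type marker lists (logarithmic axis, number of genes beside each name) in each of the 4 KC libraries (blue, library 3 as a diamond), 3 Rnaset2-/- Ly6C low libraries (red) and 3 wild-type Ly6C low libraries (grey). Hepatocyte sums are 2139 to 6747 RPM in KCs and 20.4 to 136.6 RPM in the Rnaset2-/- libraries, and pancreatic sums reach 11444 and 11025 RPM in KC libraries 1 and 4 only.

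Wild-type Ly6C low macrophages differed from KCs in a like number of genes. Of 12024 tested genes, 2845 (23.7%) were higher and 3151 (26.2%) lower in them than in KCs, beside 2247 and 3064 for the Rnaset2-/- cells, and both comparisons use the same KC libraries. The direct comparison of Rnaset2-/- with wild-type Ly6C low macrophages called 2121 of 10395 genes higher (20.4%) and 2313 lower (22.3%). In the lists for KC identity, immediate early genes and chemokines, the direct comparison called 22, 1 and 1 genes higher and 2, 36 and 20 lower.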

How the data were processed

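Libraries were grouped by the labels. The authors deposited 1 table of RPM, in which amplicon reads of the Ion AmpliSeq Transcriptome panel are scaled to the same total per library, and 100.0% of the values corresponded to whole reads within 0.1 reads. Genes were placed on chromosomes with GENCODE vM21 (GRCm38) and RefSeq names. Each library was scaled by its relative log expression factor over the 7 libraries, and log2(value + 1) of genes at 1 RPM in at least 3 libraries was tested with limma 3.58.1 (R 4.3.3, trend, two-sided, Benjamini-Hochberg adjustment over all tested genes). Genes were called at more than 1.5-fold and an adjusted p below 0.05. An exact permutation test of 3 against 4 libraries cannot go below 0.0571 and was not used. On simulated data limma recovered 61 of 100 genes changed 2-fold and 100 of 100 changed 4-fold, and called 9 of 11338 unchanged genes. The simulation had a dispersion of 0.05 for every gene, few changed genes split evenly by direction, and no deviating library. Its rates need not hold for these data, where 45.5% of genes were called and some libraries deviated.

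Named genes were the 12 largest differences in each direction among called genes averaging at least 10 RPM with no overlap, a set of genes with known roles, and, in each list, up to 3 called members in each direction and up to 3 within 1.5-fold, of which 128 are described. Genes used for sorting were named as a check of the gate. Members and lists were chosen with earlier results of these data known, and the pancreatic list after the values were seen. The alternatives were DESeq2 1.42.0 and edgeR 4.0.16 on the recovered reads, RPM as deposited, trimmed mean of M values factors, an added value of 0.1, no filter, all chromosomes, a fit of all 29 libraries, a replicate block and leaving out each library, and, after the values were seen, scaling to macrophage markers and 2 selections of libraries. Intervals and the floor of 3 reads cover counting error or spread between libraries only. Genes for RNase T2 and Ly6C and some list members are not reported here.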

Additional observations from a re-analysis of the deposited data

Results flagged for a closer look

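Among the 4 KC libraries, 16 of 144 measures had 1 library far from the others by Dixon's criterion (the gap to the nearest library over the range), which chance gives for about 1 in 20. KC library 3 was that library in 14 of them. It was the lowest for Timd4 (0.881 of the range), Cd5l (0.857), Clec1b (0.911), Csf1r (0.848), Abca1 (0.944) and Pld4 (0.885), and for the sums of KC markers (0.919) and platelet markers (0.866). It was the highest for Scd1 (0.887), Notch1 (0.834), Fcer2a (0.865) and Mmp14 (0.864), and for the sums of hepatocyte markers (0.957) and conventional dendritic cell markers (0.863). Clec1b is on both the KC and the platelet list and made up most of each platelet sum. The sum of KC markers was 7516 RPM in KC library 3 and 20434 to 21579 RPM in the other KC libraries, and the sum of hepatocyte markers was 6747 RPM against 2139 to 2337 RPM. KC library 2 was the lowest for Itgax (0.890), at 88.0 RPM against 236.5 to 255 RPM. AI606473 had a ratio of 1.0, at 0.573 RPM in KC library 1 and 0 in the others.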

How the results depend on the processing

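Of the 128 genes named, 107 were called, 96 of these kept their call under every alternative other than those added after the values were seen and none changed sign under any alternative. Leaving out 1 library in turn ended the call of 8 and gave 1917 to 2302 higher genes, 2221 to 2947 lower genes and 262 to 636 genes within 1.5-fold, against 5100 to 6149 genes differing between wild-type Ly6C low macrophages and KCs. On RPM as deposited 925 genes were higher and 4978 lower, and with scaling to macrophage markers 374 were higher. Genes within 1.5-fold numbered 1620 with all 29 libraries in the fit, 4721 with no filter on low values, where untested silent genes enter, 133 with KC libraries 2 and 3 only, 367 with Rnaset2-/- libraries 2 and 3 and KC libraries 1, 2 and 4 only, and 0 with scaling to macrophage markers. These last 3 settings were chosen after the values were seen.

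Genes that were not called changed sign as follows, and the cause was not tested. Marco was 0.45 by DESeq2 and 0.45 by edgeR. On deposited RPM, Clec1b was -0.13, Rxra -0.14, Tlr9 -0.08 and Hmgcs1 -0.46, and with scaling to macrophage markers these were -0.30, -0.30, -0.25 and -0.63 and Hmox1 was -0.04. With KC libraries 2 and 3 only, Axl was 0.48, Csf1r 0.39, Hmgcs1 -0.01 and Siglecf 0.23. With trimmed mean of M values factors, Axl and Csf1r were both 0.01. Hmgcs1 was -0.07 with all 29 libraries, and Maf 0.05 with Rnaset2-/- libraries 2 and 3 and KC libraries 1, 2 and 4. With 1 library left out, Axl ranged from -0.42 to 0.15, Csf1r from -0.38 to 0.33, Hmgcs1 from -0.05 to 0.20, Mcm6 from -0.14 to 0.10 and Maf from -0.33 to 0.07.

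The main fit did not pair libraries by replicate number, and whether equal numbers mark shared processing cannot be told. Deviations from the group means correlated at 0.111, 0.095 and 0.343 for equal numbers 1, 2 and 3. Pairs of unequal numbers ranged from -0.224 to 0.124, so the value for number 3 was the highest. With the replicate number as a block, 2286 genes were higher, 2958 lower and 640 within 1.5-fold, 1 named gene lost its call, 5 gained one, and Axl was 0.15, Csf1r 0.14 and Hmgcs1 -0.01. Depth limits genes near 3 reads, and the 3 and 4 libraries limit the intervals. RNA of other cells, sex and genotype cannot be separated here.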
